A study of Homo sapiens with 16 samples.

Results

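The genes described here are 9 markers of mesenchymal and stromal cells, LUM, DCN, POSTN, PDGFRA, PDGFRB, TWIST1, TWIST2, PRRX1 and ACTA2, read as a measure of non-neural cells in cultures that were guided towards cortical neurons. They were chosen by name, with earlier results of these data known, out of 57736 genes in the count table. All 9 were found there, and all 9 were among the 24249 genes that passed the filter on low counts. The cells were H9, an established human embryonic stem cell line, collected undifferentiated (D0) and after 12, 30 and 70 days (D12, D30, D70) of differentiation, which began with 12 days of neural induction under inhibitors of BMP and TGF-β receptor signalling. At each stage 2 cultures received the solvent DMSO (control) and 2 received Thiamet-G (TMG) at 40 µM, an inhibitor of O-GlcNAcase that raises O-GlcNAc on proteins. The 16 total RNA libraries were depleted of ribosomal RNA. All cultures derive from 1 cell line, so the replicates describe the spread between cultures and not between people. For 8 libraries the treatment tag goes against the title; libraries were grouped by title, which matches their description.

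Mesenchymal and stromal cells build connective tissue. They secrete collagens and proteoglycans, answer platelet-derived growth factors through a pair of receptor tyrosine kinases, and are specified by transcription factors such as PRRX1 and the TWIST proteins, while contractile cells such as smooth muscle hold α-smooth muscle actin. In the developing brain such cells lie in the meninges and along vessels. Some of these markers are also known from other cells: PDGFRA marks oligodendrocyte precursors, and PDGFRB marks pericytes.

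In the annotation of GRCh37, the build of the counts, LUM (ENSG00000139329) spans bases 91496406 to 91505271 of chromosome 12 and its neighbour DCN (ENSG00000011465) spans 91534261 to 91576994, both on the minus strand. POSTN (ENSG00000133110) lies on chromosome 13, PDGFRA (ENSG00000134853) on chromosome 4, PDGFRB (ENSG00000113721) on chromosome 5, TWIST1 (ENSG00000122691) on chromosome 7, TWIST2 (ENSG00000233608) on chromosome 2, PRRX1 (ENSG00000116132) on chromosome 1 and ACTA2 (ENSG00000107796) on chromosome 10. No strand was kept by a stated step, so reads from stretches shared by genes on opposite strands cannot be told apart by strand. Other genes overlap TWIST1, PRRX1 and ACTA2. For TWIST1 an antisense gene held 13.7% as many counts. The gene that overlaps PRRX1 lies on the same strand, where strand would not separate them, and held 7.73% as many. For ACTA2, FAS on the opposite strand held 19.0% as many. STAMBPL1 and ACTA2-AS1, also on the strand opposite to ACTA2, held 11.3% and 2.59% as many.

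Promoter sequences, 250 bases before to 50 bases after the start, were taken from RefSeq on GRCh38.p14 and matched for 6 of the 9 genes, not for LUM, DCN and TWIST1. The promoters of 3 genes that rose together in the D70 libraries numbered 2 and of ACTA2, which did not rise with them, are shown for comparison. Capitals mark an E-box (CANNTG, the letters that basic helix-loop-helix factors such as TWIST1 read), a TATA box (TATAAA on either strand) or a CArG-like box, the kind of element that serum response factor reads in contractile genes.
POSTN, chr13:37598719-37599018, minus strand: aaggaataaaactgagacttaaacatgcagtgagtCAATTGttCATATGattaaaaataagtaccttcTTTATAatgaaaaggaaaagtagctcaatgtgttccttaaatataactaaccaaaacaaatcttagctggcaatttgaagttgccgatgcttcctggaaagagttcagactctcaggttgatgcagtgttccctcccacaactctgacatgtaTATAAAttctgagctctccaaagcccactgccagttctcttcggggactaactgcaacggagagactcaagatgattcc
PRRX1, chr1:170663881-170664180, plus strand: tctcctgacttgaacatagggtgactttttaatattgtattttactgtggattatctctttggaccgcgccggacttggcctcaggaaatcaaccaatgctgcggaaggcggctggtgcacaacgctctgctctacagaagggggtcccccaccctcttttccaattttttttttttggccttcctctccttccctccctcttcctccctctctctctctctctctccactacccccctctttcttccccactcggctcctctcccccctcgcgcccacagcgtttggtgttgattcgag
TWIST2, chr2:238847835-238848134, plus strand: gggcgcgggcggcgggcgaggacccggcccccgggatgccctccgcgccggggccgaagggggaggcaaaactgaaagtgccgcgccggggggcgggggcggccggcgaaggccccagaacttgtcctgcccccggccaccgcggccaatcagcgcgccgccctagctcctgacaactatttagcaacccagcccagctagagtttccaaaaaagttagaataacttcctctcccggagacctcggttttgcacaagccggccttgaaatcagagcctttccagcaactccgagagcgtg
ACTA2, chr10:88952724-88953023, minus strand: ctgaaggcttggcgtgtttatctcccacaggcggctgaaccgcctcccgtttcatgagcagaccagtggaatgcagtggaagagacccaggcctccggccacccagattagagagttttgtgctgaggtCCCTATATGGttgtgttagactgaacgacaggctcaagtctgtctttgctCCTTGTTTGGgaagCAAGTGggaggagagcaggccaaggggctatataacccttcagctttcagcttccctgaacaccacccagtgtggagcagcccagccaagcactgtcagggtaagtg
With the start as base 1, the POSTN promoter holds E-boxes at -215 and -207 and a TATA box at -29, with the letters of a TATA box on the other strand from -182. The ACTA2 promoter shown holds CArG-like boxes at -121 and -71 and an E-box at -57. It is 1 of 2 that RefSeq gives for ACTA2, and the other, chr10:88991288-88991587 on the minus strand, holds none of these letters. No such letters were found in these windows of PRRX1 and TWIST2. Over 35116 human promoters of this length, 68.7% held an E-box, 11.5% a TATA box on either strand and 8.13% a CArG-like box, so an E-box is common at this length. CArG-like here means CC and GG around 6 bases of which at most 1 is C or G. The matches describe letters and were not tested as sites.

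Library totals lay between 10334908 and 19836878 counts. Levels are given as CPM, a count divided by the library total on a common scale, corrected by TMM factors. A count of 3 in a control library of D0 corresponds to about 0.21 CPM. Several late libraries stood apart. In TMG replicate 2 of D70, the neural progenitor factor PAX6 was at 2.50 CPM against 306 to 587 CPM in the other 3 libraries of that stage, the summed level of 10 neuron genes was 217 CPM against 609 to 1284 CPM, and the basal keratin KRT5 was at 2176 CPM against 1.48 to 378 CPM. The summed level of 7 neural progenitor genes was less far apart, at 1712 CPM against 2342 to 4660 CPM. The D70 libraries numbered 1 held the choroid plexus transcript TTR at 9812 CPM in control and 2913 CPM in TMG, against 198 and 0.277 CPM in those numbered 2. Counts of genes called by the edgeR test over all 16 libraries that involve TMG replicate 2 of D70 are given with it. Without it, counts or medians of the log2 fold change are given, except for the difference between TMG effects. Counts by DESeq2 and under a replicate block were run with it. The leaving out of this library for the gene lists was chosen after seeing the data. Correlations between genes use all 16 libraries.

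The 9 genes did not follow 1 course. PDGFRA, PDGFRB and ACTA2 were higher in every library of D12 than in any of D0 and were present in every D70 library, whereas LUM, DCN, POSTN, TWIST1, TWIST2 and PRRX1 were high in the D70 libraries numbered 2 and low in those numbered 1. LUM, too, was higher in every library of D12 than in any of D0. The sum of all 9 was between 24.3 and 38.0 CPM on D0 and between 141 and 170.5 CPM on D12. On D30 it was 279 and 402 CPM in control and 445 and 2490 CPM in TMG, and on D70 it was 537 and 2124 CPM in control and 581 and 2623 CPM in TMG. Fewer cells of a type and less RNA per cell cannot be told apart in such bulk samples.

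**Figure D1:**
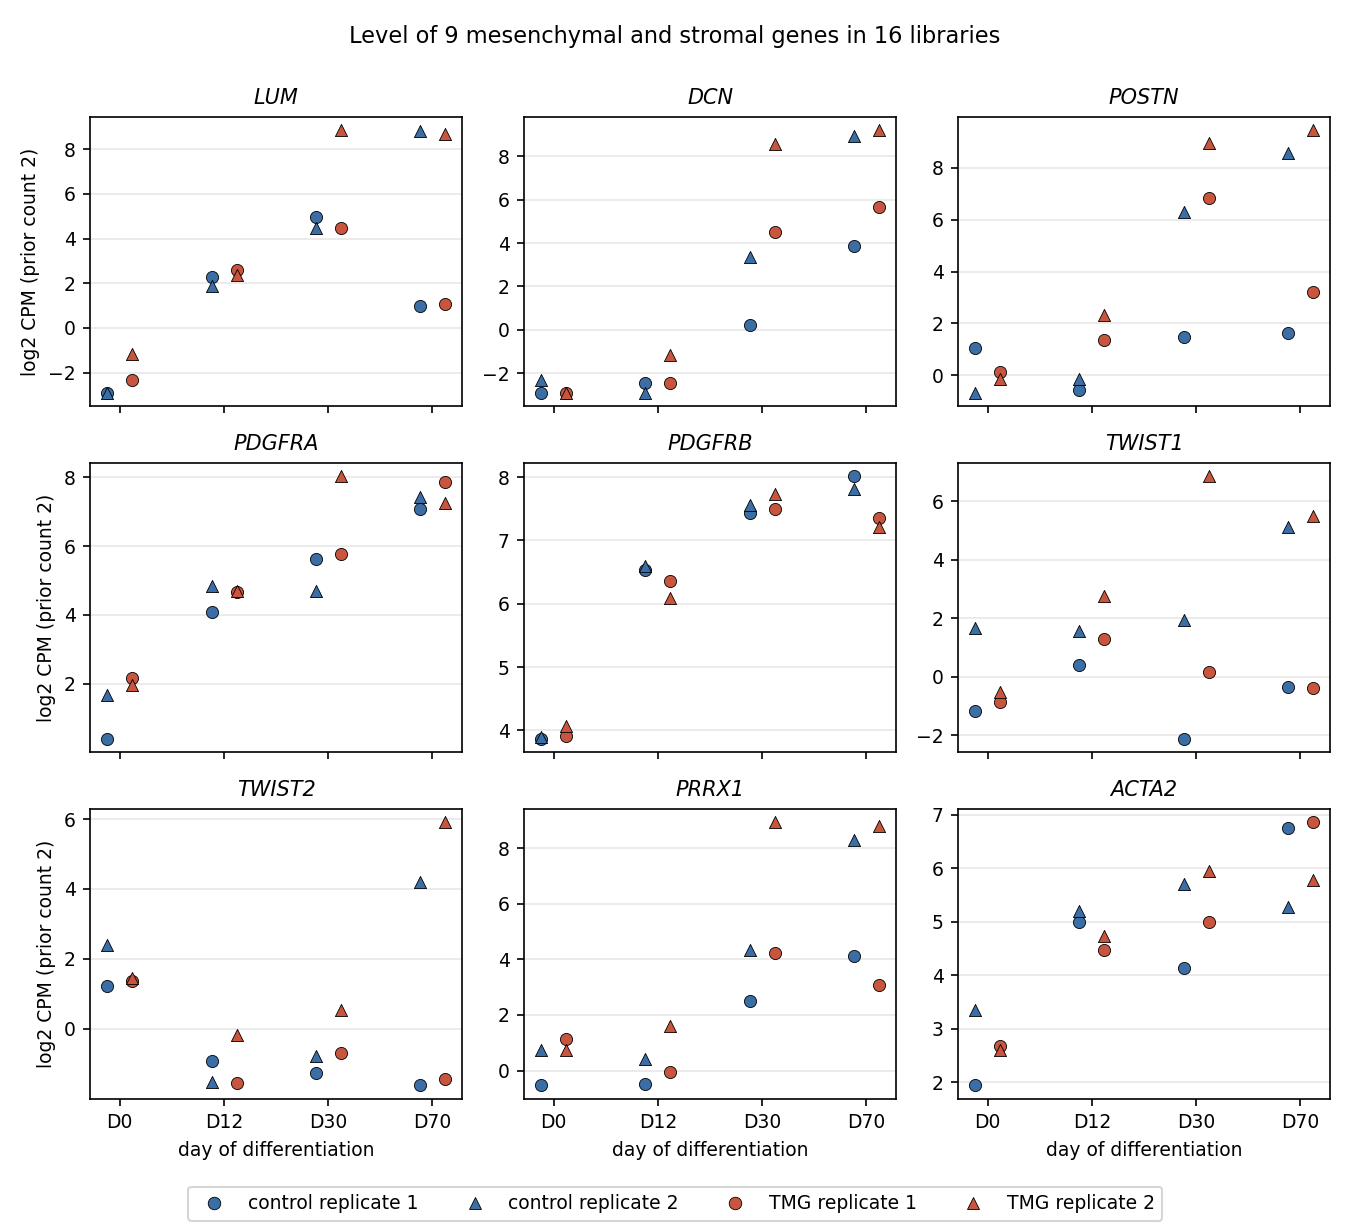
Level of each gene in each of the 16 libraries, as log2 CPM with a prior count of 2, against the day of differentiation. Blue marks control and red marks TMG, circles replicate 1 and triangles replicate 2. On D70 the triangles of LUM, DCN, POSTN, TWIST1, TWIST2 and PRRX1 lie far above the circles, those of PDGFRA and PDGFRB do not, and those of ACTA2 lie below.

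Among the matrix genes, LUM encodes lumican, a small leucine-rich proteoglycan that spaces collagen fibrils. It had no count in either control library of D0 and was at 0.0686 and 0.309 CPM in the TMG libraries, which are 1 and 6 counts. It was between 3.56 and 5.82 CPM in all 4 libraries of D12. On D30 it was at 31.3 and 22.1 CPM in control and at 22.3 and 466 CPM in TMG, so that 1 library stood more than 10-fold above the other 3. On D70 it was at 1.86 and 454 CPM in control and at 1.98 and 409 CPM in TMG. The D70 libraries numbered 1 thus held less LUM than any library of D12 or D30.

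DCN encodes decorin, a proteoglycan of the same family that binds collagen and TGF-β. It had at most 5 counts in any library of D0 and D12. By D30 it reached 1.03 and 10.1 CPM in control and 22.9 and 382 CPM in TMG, and both TMG libraries lay above both controls. Levels on D70 were 14.3 and 492 CPM in control and 50.9 and 598 CPM in TMG. Unlike LUM, DCN remained above its D12 levels in all 4 libraries of D70.

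POSTN encodes periostin, a matricellular protein of fibroblasts and periosteum. Its level was between 0.490 and 1.92 CPM on D0 and between 0.541 and 4.91 CPM on D12. The D30 libraries held 2.63 and 79.4 CPM in control and 113 and 496 CPM in TMG, again with both TMG libraries above both controls. Those of D70 held 2.96 and 378 CPM in control and 9.17 and 707 CPM in TMG.

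The receptors behaved otherwise. PDGFRA was at 1.17 and 3.08 CPM in control and at 4.39 and 3.76 CPM in TMG on D0, and between 16.9 and 28.4 CPM on D12. It was at 48.9 and 25.7 CPM in control and at 54.8 and 262 CPM in TMG on D30. The D70 levels were 134 and 170.5 CPM in control and 230.2 and 152 CPM in TMG, and replicates 1 and 2 overlapped.

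PDGFRB, the receptor known from pericytes, varied little between replicates. It was between 14.4 and 16.6 CPM on D0, at 92.6 and 96.7 CPM in control and 81.7 and 68.1 CPM in TMG on D12, and between 172 and 212 CPM on D30. On D70 it was at 259 and 225 CPM in control and at 164 and 149 CPM in TMG. Both TMG libraries lay below both controls on D12 and on D70.

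TWIST1 and TWIST2 encode related basic helix-loop-helix factors of the early mesenchyme, and PRRX1 is a homeobox factor of limb and head mesenchyme. TWIST1 was between 0.309 and 6.59 CPM in the 8 libraries of D0 and D12, with its highest D0 level, 3.01 CPM, in control replicate 2. TWIST1 was on D30 at 0.0940 and 3.66 CPM in control and at 0.971 and 117 CPM in TMG, the first of these from 1 count. Its D70 levels were 0.643 and 35.0 CPM in control and 0.632 and 44.9 CPM in TMG.

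TWIST2 was between 2.22 and 5.11 CPM in the stem cells of D0 and between 0.208 and 0.746 CPM on D12, a difference whose call depended on the fit, as given with the stages. The gene was between 0.282 and 1.33 CPM on D30. In the D70 libraries it was at 0.193 and 18.3 CPM in control and at 0.237 and 60.0 CPM in TMG, and both low values rest on 3 counts each. It was the only one of the 9 genes that did not exceed 2 CPM in TMG replicate 2 of D30.

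PRRX1 was between 0.556 and 2.92 CPM on D0 and D12. On D30 it was at 5.54 and 20.3 CPM in control and at 18.5 and 493 CPM in TMG, and on D70 at 17.4 and 312 CPM in control and at 8.38 and 448 CPM in TMG. ACTA2, the actin of smooth muscle and myofibroblasts, was between 3.71 and 10.1 CPM on D0 and between 22.0 and 36.8 CPM on D12. The D30 levels were 17.5 and 52.2 CPM in control and 31.9 and 61.8 CPM in TMG. On D70 its order was inverted relative to the matrix genes, with 107 and 38.5 CPM in control and 116 and 54.9 CPM in TMG.

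The first comparison was between libraries of a stage that carry different replicate numbers. The labels do not say what libraries of the same number share. On D70, 6 of the 9 genes were higher in the libraries numbered 2 (edgeR quasi-likelihood test, Benjamini-Hochberg adjusted over 24249 genes at 5%), beside 7.6% of all genes tested, and 1 was lower, beside 10.7%. LUM was higher by 7.81 on the log2 scale (SE 1.31, adjusted p = 0.0129), TWIST2 by 7.29 (SE 0.68, adjusted p = 0.00166), POSTN by 6.60 (SE 0.69, adjusted p = 0.00223) and TWIST1 by 5.93 (SE 0.52, adjusted p = 0.00164). PRRX1 was higher by 4.92 (SE 0.75, adjusted p = 0.00683) and DCN by 4.32 (SE 0.46, adjusted p = 0.00355). ACTA2 was lower, with a log2 fold change of -1.27 (SE 0.31, adjusted p = 0.0306). For PDGFRA the log2 fold change was -0.12 (SE 0.68, adjusted p = 0.922) and for PDGFRB -0.17 (SE 0.13, adjusted p = 0.386). The differences of the 6 matrix and transcription factor genes had the same direction in each arm alone, where LUM was 244-fold higher in control and 207-fold higher in TMG, and DCN 34.5-fold and 11.7-fold.

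In 5 of the 9 genes the lower library numbered 2 was at least 10-fold above the higher one numbered 1, beside 2.19% of all genes tested. DCN was the exception among the 6 that rose. Both libraries numbered 2 lay above both numbered 1 in 6 genes and below in 1, beside 28.8% of all genes each way. Without TMG replicate 2, the library that stood apart, DCN, POSTN, TWIST1, TWIST2 and PRRX1 were still called, while LUM reached an adjusted p of 0.0604 and ACTA2 of 0.0768. LUM also lost its call without TMG replicate 1 (adjusted p = 0.0617), and ACTA2 lost its call without any 1 of the 4 libraries (adjusted p between 0.0763 and 0.135). With no filter on low counts, LUM (adjusted p = 0.131) and PRRX1 (adjusted p = 0.0529) were not called. With only the 4 libraries of D70 in the fit, none of the 9 and no other gene was called, with 4571 genes at an unadjusted p below 0.05.

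**Figure D2:**
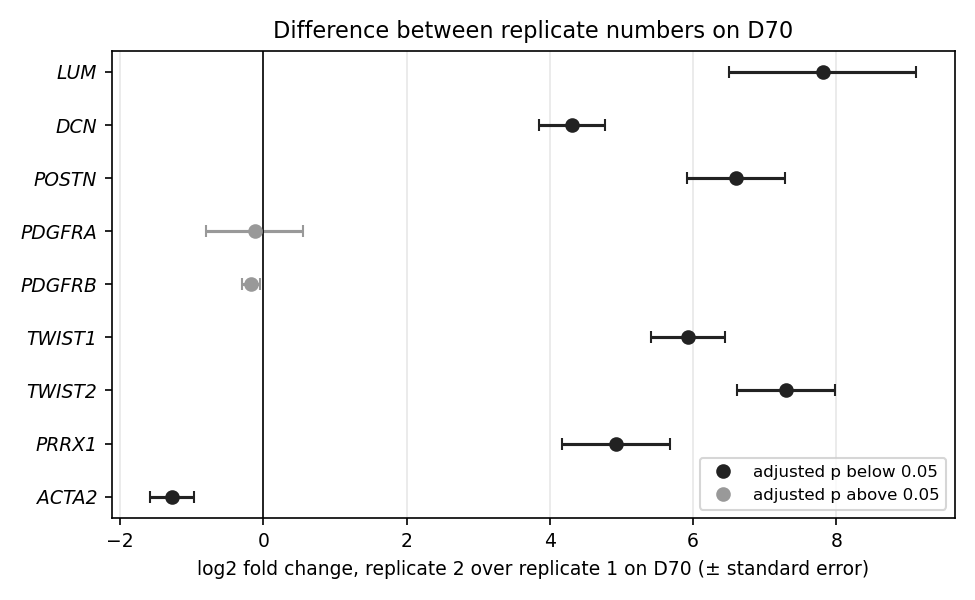
Log2 fold change of each gene between the D70 libraries numbered 2 and those numbered 1, over both arms, with its standard error (horizontal bars). Dark points passed the 5% false discovery rate and grey points did not: 6 genes lie between 4.32 and 7.81, PDGFRA and PDGFRB lie near 0 and ACTA2 at -1.27.

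At earlier stages the replicate numbers gave no call among the 9 genes. On D30, 0.00412% of all genes were called. There TWIST1 had a log2 fold change of 6.68 (SE 0.64, adjusted p = 0.0709), DCN of 3.83 (SE 0.51, adjusted p = 0.158), PRRX1 of 3.44 (SE 0.77, adjusted p = 0.193), POSTN of 3.29 (SE 0.62, adjusted p = 0.18) and ACTA2 of 1.26 (SE 0.32, adjusted p = 0.202). All 9 log2 fold changes were positive on D30, and 5 had an unadjusted p below 0.05, beside 14% of all genes. DESeq2 called those 5, beside 2.61% of the genes to which it gave an adjusted p. On D12 and on D0, 0 of the 9 genes and 0% of all genes were called, and TWIST1 alone of the 9 had an unadjusted p below 0.05 at both stages (log2 fold change 1.39 with SE 0.44 on D12 and 2.06 with SE 0.60 on D0), beside 9.99% and 2.04% of all genes.

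The second comparison asked whether TMG moved these genes. By edgeR, 0 of the 9 genes and 0% of all genes tested were called at any of the 4 stages. At an unadjusted p below 0.05, 0 of the 9 genes stood out on D0 and on D12, 3 on D30 and 1 on D70, beside 1.26%, 2.48%, 12% and 5.49% of all genes. DESeq2 called 0, 0, 1 and 0 of the 9, beside 0.0206%, 0.0454%, 3.13% and 0.296% of all genes to which it gave an adjusted p. On D30 all 9 log2 fold changes were positive, with a median of 2.88 against 0.01 over all genes tested. DCN was at 5.13 (SE 1.93, adjusted p = 0.344), TWIST1 at 4.88 (SE 2.42, adjusted p = 0.456) and PRRX1 at 4.29 (SE 1.89, adjusted p = 0.407). LUM was at 3.19 (SE 2.21, adjusted p = 0.616), POSTN at 2.88 (SE 2.02, adjusted p = 0.619) and PDGFRA at 2.09 (SE 0.64, adjusted p = 0.259, and 0.0383 by DESeq2). TWIST2, ACTA2 and PDGFRB had the smallest values, 1.24, 0.42 and 0.12.

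The D30 values depended on single libraries. TMG replicate 2 was the highest of its stage for all 9 genes, beside 32.4% of all genes, and in 6 of them, LUM, DCN, POSTN, PDGFRA, TWIST1 and PRRX1, it was at least 4-fold above each of the other 3, beside 2.1% of all genes (a count chosen after its values were seen). Without it, LUM moved to -0.25, TWIST1 to -1.01 and ACTA2 to -0.14. DCN remained positive at 1.98 and POSTN at 1.44, while PDGFRA was at 0.56, PRRX1 at 0.49, TWIST2 at 0.35 and PDGFRB at 0.00. Without control replicate 2 of D30, by contrast, DCN was at 7.60, POSTN at 6.85, PRRX1 at 5.53, TWIST1 at 9.17 and ACTA2 at 1.42, and without control replicate 1 ACTA2 was at -0.16. The value of -1.01 for TWIST1 sets TMG replicate 1, at 0.971 CPM, against controls at 0.0940 and 3.66 CPM. Between libraries of the same number, TMG was above control in both pairs in 8 of the 9 genes, beside 32.5% of all genes; LUM was the exception. With the replicate number as a block, DCN (adjusted p = 0.0296), TWIST1 (adjusted p = 0.0296) and POSTN (adjusted p = 0.0497) were called by edgeR, beside 0.961% of all genes. Without TMG replicate 1, PDGFRA was at 2.82 and was called (adjusted p = 0.0450), beside 0.519% of all genes called higher in that fit. Both TMG libraries lay above both control libraries in 4 of the 9 genes, beside 23.1% of all genes, and below in 0, beside 21%.

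**Figure D3:**
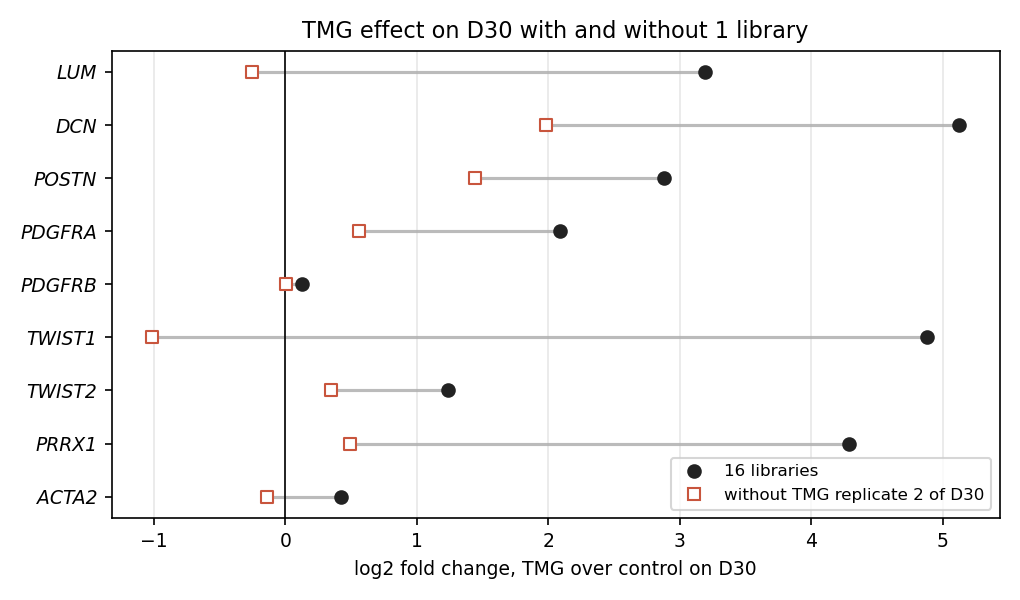
Log2 fold change between TMG and control on D30 for each gene, from all 16 libraries (filled circles) and with TMG replicate 2 of D30 left out (open squares). Every value moved towards or below 0 when that library was left out; LUM, TWIST1 and ACTA2 changed sign and DCN stayed highest at 1.98.

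On D70, 7 of the 9 log2 fold changes for TMG were positive and their median was 0.35. Without TMG replicate 2 of D70, 2 were positive and the median was -4.29. That fit sets TMG replicate 1 alone against control replicates 1 and 2, so it cannot separate TMG from the replicate number. PDGFRB was the gene with an unadjusted p below 0.05, at a log2 fold change of -0.63 (SE 0.16, adjusted p = 0.843 by edgeR). On D12 its log2 fold change was -0.34 (SE 0.16, adjusted p = 1.00). PDGFRB was the only one of the 9 genes whose arms did not overlap on D70, where both TMG libraries lay above both controls in 9.77% of all genes and below them in 12.4%. Leaving out any 1 of the 4 D70 libraries gave values between -0.72 and -0.52. The difference between the TMG effects of D70 and D30 was called for 0 of the 9 genes and 0% of all genes. It was largest relative to its error for PDGFRB, at -0.75 (SE 0.22, adjusted p = 1.00).

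The third comparison was between stages within an arm. From D0 to D12, PDGFRB rose in control by 2.70 on the log2 scale (SE 0.17, adjusted p = 2.93e-05) and in TMG by 2.24 (SE 0.17, adjusted p = 0.000105). PDGFRA rose by 3.42 in control (SE 0.71, adjusted p = 0.0108) and by 2.65 in TMG (SE 0.67, adjusted p = 0.0238). Its control call was lost without control replicate 1 of D0 or control replicate 2 of D12. Its TMG call was lost with no filter on low counts or without any 1 TMG library of either stage. With single libraries left out, its values ran from 2.90 to 4.26 in control and from 2.53 to 2.76 in TMG. ACTA2 rose by 2.31 in control (SE 0.68, adjusted p = 0.0408), while its TMG value of 1.98 (SE 0.67, adjusted p = 0.0684) did not pass. The control value was not called with no filter on low counts or when any 1 library of either stage and either arm was left out. Leaving out single libraries gave control values between 1.79 and 3.20. The TMG value was called under the replicate block (adjusted p = 0.00623), by DESeq2 (adjusted p = 0.0156) and with only the stages compared (adjusted p = 0.00706), beside 13.5%, 10.3% and 17.4% of all genes called higher. These were 3 of 9 genes in control, beside 6.97% of all genes that rose, and 2 of 9 in TMG, beside 7.24%. In this fit none of the 9 fell, beside 9.71% and 9.19% of all genes. LUM was not called in either arm (edgeR adjusted p = 0.264 and 0.323). DESeq2 called it higher in control (adjusted p = 0.00744), beside 9.64% of all genes. With only the stages compared it was called higher in both arms (adjusted p = 0.000895 and 0.0013), beside 17.3% and 17.4%. In TMG that fit also called POSTN (adjusted p = 0.0339) and TWIST1 (adjusted p = 0.0429), and the replicate block called TWIST1 (adjusted p = 0.00574). TWIST2 had log2 fold changes of -3.53 in control (SE 2.01, adjusted p = 0.254) and -2.43 in TMG (SE 1.93, adjusted p = 0.428). It was called lower in both arms with the replicate number as a block (adjusted p = 0.00724 in control and 0.019 in TMG, beside 16% and 15.4% of all genes called lower) and with only the libraries of D0 and D12 in the fit (adjusted p = 0.00616 and 0.0217, beside 19.2% and 18.4%). Without single libraries of either stage 1 to 2 genes were called in each arm, and PDGFRB was called in all of these fits, beside 1.5% to 5.13% of all genes called higher in control and 1.08% to 6% in TMG.

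From D12 to D30, PDGFRB was the gene called in both arms, with a rise of 0.93 in control (SE 0.16, adjusted p = 0.0153) and of 1.39 in TMG (SE 0.16, adjusted p = 0.0181). The shares of all genes that rose were 1.91% and 0.388%. Its call was lost in control when any 1 of the 4 control libraries was left out, with a log2 fold change still between 0.86 and 0.99, and in TMG without either TMG library of D12 or TMG replicate 2 of D30, at values between 1.27 and 1.53. When replicate numbers entered as a block, DCN, POSTN and PRRX1 were also called higher in both arms, beside 7.48% of all genes in control and 4.05% in TMG, and TWIST1 was called lower in control, beside 6.26%. DESeq2 also called DCN and POSTN in both arms and PDGFRA and PRRX1 in TMG, beside 7.29% and 3.77% of genes called higher. From D30 to D70, 0 of the 9 genes were called in either arm, where 0.384% of all genes were called in control, 0.305% as risen, and 0.00825% in TMG, 0.00412% as risen. In that step 4 of the 9 genes in control and 1 in TMG had an unadjusted p below 0.05, beside 18.4% and 11% of all genes. DESeq2 called 1 and 0 of the 9, beside 8.38% and 1.85% of the genes to which it gave an adjusted p. With the block, DCN and TWIST1 were called higher in control, beside 4.7% of all genes. In TMG 5 of the 9 log2 fold changes were positive with a median of 0.23. Without TMG replicate 2 of D70, 2 were positive with a median of -1.99. There TMG replicate 1 alone stands for D70, so that fit cannot separate the stage from the replicate number.

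Over the whole course from D0 to D70, 6 of the 9 genes rose in control, beside 15% of all genes, and 7 rose in TMG, beside 14.9%. The medians of the 9 log2 fold changes were 6.17 and 5.55. Markers of another cell type rose over the same course: of 7 genes of choroid plexus and pigment epithelium, 6 rose in control with a median of 7.47 and 5 in TMG with a median of 6.61, and their part in the result was not tested. Without TMG replicate 2 of D70, the median of these 7 in TMG was 7.60. PDGFRB rose by 4.06 in control (SE 0.18, adjusted p = 3.55e-06) and by 3.31 in TMG (SE 0.17, adjusted p = 1.51e-05). PDGFRA rose by 6.17 (SE 0.79, adjusted p = 0.000443) and 5.55 (SE 0.76, adjusted p = 0.000648), and ACTA2 by 3.40 (SE 0.70, adjusted p = 0.00548) and 3.80 (SE 0.72, adjusted p = 0.00344). PRRX1 rose by 7.30 (SE 2.26, adjusted p = 0.0329) and 6.99 (SE 2.19, adjusted p = 0.0355), and POSTN by 8.69 in TMG (SE 2.72, adjusted p = 0.0353), while its adjusted p in control was 0.0535. These sizes rested on the D70 libraries numbered 2: PRRX1 was at 4.08 in control without control replicate 2 and at 2.22 in TMG without TMG replicate 2, where POSTN was at 3.40. LUM and DCN were called in both arms (adjusted p between 0.0115 and 0.0448).

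Because LUM had no count in the D0 controls, its D70 control mean was at least 1087-fold higher than a floor of 3 counts per library, and its lower D70 library at least 8.89-fold higher. The TMG mean of DCN on D70 was at least 1575-fold above the same floor and its lower library at least 247-fold. TWIST1 and TWIST2 were not called by this test (adjusted p between 0.136 and 0.585). Under the block on replicate numbers, TWIST1 was called higher in control (adjusted p = 0.0191) and in TMG (adjusted p = 0.00256), and POSTN in control too (adjusted p = 0.00213), beside 20.5% and 19.3% of all genes. DESeq2 called TWIST1 in TMG (adjusted p = 0.0276) and POSTN in control (adjusted p = 0.000615), beside 19.1% and 18.7%. TWIST2 was called in TMG without TMG replicate 1 of D70 (adjusted p = 0.0370 by edgeR), beside 12.7%. Without control replicate 2 of D70, and likewise without either control library of D0, PDGFRA, PDGFRB and ACTA2 were the 3 genes still called in control, beside 13.2%, 5.9% and 6.86% of all genes called higher. Without TMG replicate 2 of D70, these 3 and DCN were called in TMG, beside 13.7% of all genes that rose, and without either TMG library of D0 the 3 alone, beside 4.63% and 4.7%.

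The likeness of the 9 genes over the 16 libraries was graded. As a description, and with libraries of a stage and number in common, Pearson's r of log2 CPM was 0.96 between DCN and PRRX1, 0.93 between POSTN and PRRX1 and 0.92 between DCN and POSTN. It was 0.92 between PDGFRA and PDGFRB, 0.90 between PDGFRA and ACTA2 and 0.89 between PDGFRB and ACTA2. Between these trios r was 0.84 for DCN and PDGFRA, 0.73 for DCN and PDGFRB and 0.52 for POSTN and ACTA2. LUM had r of 0.80 to DCN, to PDGFRA and to PDGFRB, and DCN had r of 0.64 to TWIST1, so r did not separate the genes that were high on D70 in the libraries numbered 2 from the receptors. TWIST2 had the lowest values, with r of -0.22 to PDGFRB and to ACTA2 and of 0.53 to TWIST1.

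The 10 genes most like the mean scaled level of the 9 were DDR2 (r = 0.98), a collagen receptor, then BICC1, COL1A1, COL5A1, ENSG00000272761, COL3A1, COL12A1, SRPX2, ADGRA2 and COL5A2 (r between 0.96 and 0.97, n = 16 libraries). Of these, 5 encode chains of fibrillar collagens or of a collagen that binds to their fibrils. DDR2 was between 0.927 and 3.78 CPM on D0. On D30 it was at 11.7 and 29.7 CPM in control and 25.8 and 308 CPM in TMG. On D70 it was at 46.5 and 239 CPM in control and 27.3 and 356 CPM in TMG. It was high in the same 3 late libraries, which follows from its choice by likeness over these libraries. With a prior count of 0.5, 8 of the 10 were again among the first 10, and by Spearman's measure 5 were.

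Further genes known from stromal and mesenchymal cells were read from lists that do not hold the 9. Like the 9, these lists were chosen with earlier results of these data known. Whether their RNA came from the same cells was not tested. Of 23 genes of the stromal matrix, 18 rose in the D70 libraries numbered 2 and 0 fell, beside 7.6% and 10.7% of all genes, with a median of 2.84 over the list and 0 over all genes. Without TMG replicate 2 of D70, 12 of them rose and 0 fell, beside 3.25% and 5.51% of all genes, with a median of 2.38. COL1A1, a chain of type I collagen, was at 2403 and 20367 CPM in control and 1876 and 27654 CPM in TMG (log2 fold change 3.48, SE 0.45, adjusted p = 0.004). The summed level of the list was 12886 and 59728 CPM in control and 9277 and 81602 CPM in TMG on D70. On D30 it was 9961 and 12755 CPM in control and 14451 and 45758 CPM in TMG. From D0 to D70, 16 of the 23 rose in each arm and 0 fell, beside 15% of all genes that rose in control and 14.9% in TMG. The median of the 23 in TMG was 4.22, and all 23 log2 fold changes were positive. Without TMG replicate 2 of D70 the median was 2.53, and 19 were positive. That fit leaves TMG replicate 1 alone for D70, so its calls are not set beside the 16.

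Of 17 further mesenchymal transcription factors tested, 7 rose in the D70 libraries numbered 2 and 0 fell, beside 7.6% and 10.7% of all genes, with a median of 2.64: PRRX2, SNAI2, FOXF2, MEOX2, TBX15, TBX18 and HAND2. In the fit that left out TMG replicate 2 of D70, 3 of 19 tested rose and 0 fell, beside 3.25% and 5.51% of all genes. Of the 4 most abundant genes of the list, ZEB2 and ZEB1 had log2 fold changes of 1.52 (SE 0.55, adjusted p = 0.101) and 0.53 (SE 0.31, adjusted p = 0.283), MSX2 of -0.17 (SE 0.51, adjusted p = 0.854) and MSX1 of -1.82 (SE 0.52, adjusted p = 0.0535). Of the 4 PDGF ligands, 0 were called there with or without that library, and their sum was between 110 and 214 CPM in the 4 libraries of D70. Of 16 genes of smooth muscle and pericytes, 2 rose, CSPG4 and ANPEP, and 2 fell, the contractile genes MYH11 and MYLK, beside 7.6% and 10.7% of all genes. The median of the 16 was -0.85 with all libraries and -0.47 with TMG replicate 2 of D70 left out. TAGLN, a further contractile gene, was at 164 and 51.7 CPM in control and at 162 and 126 CPM in TMG (log2 fold change -1.01, SE 0.62, adjusted p = 0.3).

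Markers of other cell types also differed between the D70 libraries of different number. Some lists rose with the 6 genes and others fell, and their part in the result was not tested. The counts of these lists stand beside 7.6% of all genes that rose and 10.7% that fell, and single genes of a list are close to such shares. Of 7 epithelial genes 4 rose and 0 fell, and their sum was 410 and 888 CPM in control and 545 and 3848 CPM in TMG. Of 7 genes of cartilage and bone tested 3 rose and 0 fell, with sums of 543 and 437 CPM in control and 658 and 3883 CPM in TMG. Of 9 neural crest genes 5 rose and 0 fell, with sums of 24.7 and 164 CPM in control and 189 and 425 CPM in TMG. Of 10 neuron genes 0 rose and 4 fell, of 6 neural progenitor genes tested 0 rose and 3 fell, and of 7 genes of choroid plexus and pigment epithelium 0 rose and 3 fell. Of 8 endothelial genes, ERG and EMCN rose and CLDN5 fell, and the sum was between 37.3 and 95.7 CPM. Without TMG replicate 2 of D70, the genes that rose and fell numbered 4 and 0 in the epithelial list, 0 and 0 in cartilage and bone, 4 and 0 in neural crest, 0 and 2 among neuron genes, 0 and 0 among neural progenitor genes, 2 and 3 in choroid plexus and pigment epithelium and 3 and 1 among endothelial genes, beside 3.25% and 5.51% of all genes. In control replicate 2 of D70 the sums of the cartilage and neuron lists were 437 and 609 CPM, beside 543 and 1221 CPM in replicate 1. The neural progenitor list summed to 2342 CPM beside 3648 CPM, although PAX6 was at 312 CPM beside 306 CPM. The 9 genes summed to 2124 CPM beside 537 CPM.

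**Figure D4:**
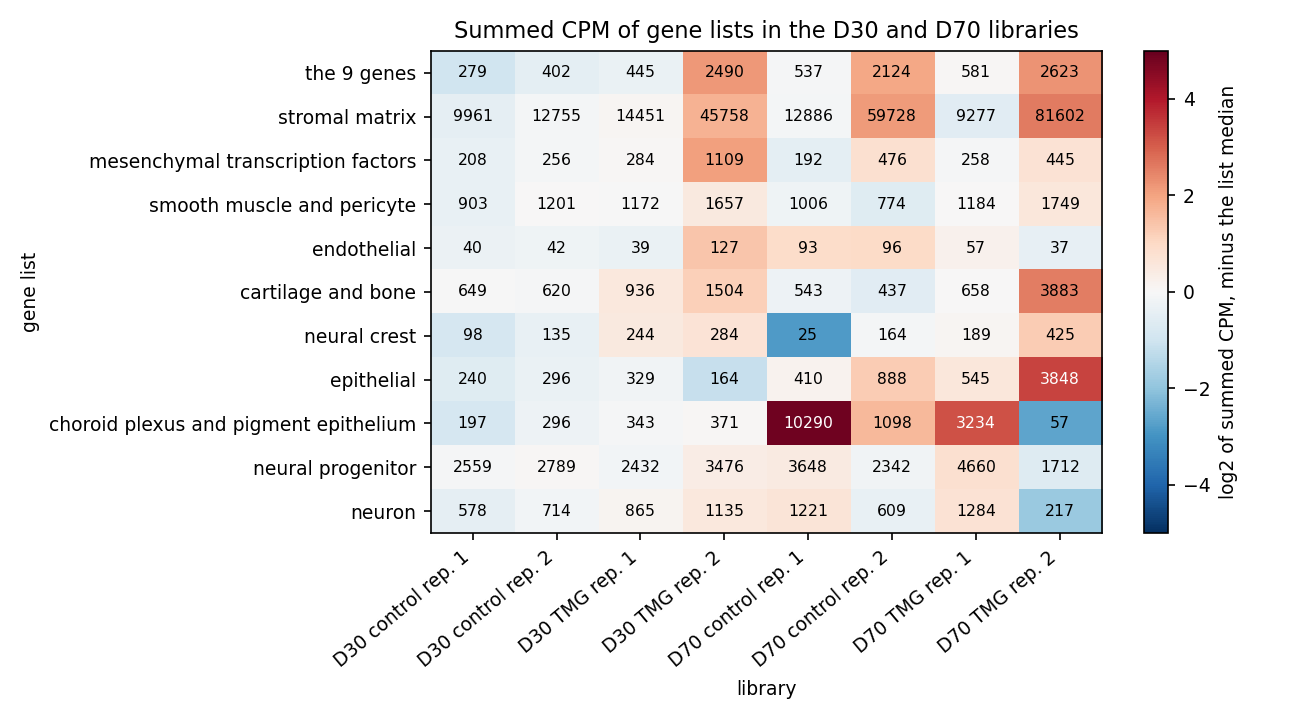
Summed CPM of each gene list (rows) in the 8 libraries of D30 and D70 (columns), printed in each cell and coloured by the log2 distance from the median of that list over the 8 libraries. The 9 genes and the stromal matrix are highest in TMG replicate 2 of D30 and in both libraries numbered 2 of D70, whereas the epithelial and cartilage lists are highest in TMG replicate 2 of D70 and the choroid plexus list in both libraries numbered 1.

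TMG replicate 2 of D30, the other library with high levels, was not the same in these lists. Its epithelial sum, 164 CPM, was the lowest of the stage, against 240.2 to 329 CPM in the other 3. Its neuron sum, 1135 CPM, was the highest of the stage, and its mesenchymal transcription factors summed to 1109 CPM against 208 to 284 CPM. The endothelial sum was 127 CPM against 38.7 to 41.9 CPM, of which ERG gave 73.9 CPM. PAX6 was at 246 CPM there, against 331 to 446 CPM in the other 3. The sum of the neural progenitor list, which also holds NES and VIM, went the other way than PAX6. It was 3476 CPM, the highest of the stage, against 2432 to 2789 CPM. Which cells gave this sum was not tested, so it is not read as a level of progenitors.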

How the data were processed

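H9 cells were profiled by RNA-seq in 16 libraries, 2 for each of 4 stages and 2 treatments. The authors aligned reads with bowtie2 to hg19 and deposited estimated counts from RSEM 1.2.12 for each Ensembl gene of GRCh37, not normalized and as whole numbers; how they were rounded is not stated. The sources name NEBNext Ultra or Ultra II library kits. Of 57736 genes, 14593 had no count in any library.

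Genes were filtered with filterByExpr (minimum count 10, minimum total 15), scaled by TMM and tested in edgeR 4.0.16 (robust quasi-likelihood fit) with 1 mean for each of 8 groups, or with an added replicate-number term within each stage for the comparisons of numbers. P-values were adjusted by Benjamini-Hochberg over 24249 genes. Each standard error is the absolute log2 fold change divided by the square root of F. The test scripts were first checked on simulated counts; every value reported comes from the deposited counts. Log2 CPM values used a prior count of 2. Gene positions follow GENCODE lifted to GRCh37.

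The 9 genes, the lists and the comparisons were chosen with earlier results of these data known. Named beside them are at most the 4 most abundant genes of each list and the 10 genes most alike; other names were chosen after their values were seen. PECAM1 was not matched. Same-numbered libraries were checked for pairing by the correlation of replicate differences between arms, with r of 0.05 (D0), 0.37 (D12), 0.22 (D30) and 0.61 (D70); the sources do not tie the numbers across arms, so no block entered the reported tests of TMG and stage. Alternatives were RLE scaling, no filter, DESeq2 1.42.0, only the stages compared, a replicate block and leaving out each library. The study's methods call the replicates biological. Other tools were R 4.3.3, Python 3.11.15, pandas 2.3.3, scipy 1.17.1 and matplotlib 3.10.9.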

Additional observations from a re-analysis of the deposited data

Results flagged for a closer look

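For PDGFRB the arms did not overlap on D0, D12 and D70, and the side on which TMG lay was not the same at each. On D0 both TMG libraries, at 14.96 and 16.64 CPM, lay above both control libraries, at 14.40 and 14.69 CPM, as did 19.7% of all genes. On D12 and on D70 both lay below, as did 16.5% and 12.4% of all genes. On D30 the arms overlapped, at 172 and 188 CPM in control and 180.4 and 212 CPM in TMG. The TMG effect passed the edgeR test at none of these stages, with an adjusted p of 1.00 on D0 and D12 and 0.843 on D70. The TMG effect of D12 minus that of D0 was -0.46 on the log2 scale, and that of D70 minus that of D0 was -0.75. Neither difference was tested.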

How the results depend on the processing

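Under RLE scaling no count of called genes moved by over 1.5 times. Counts below are of the 9 genes, with the share of all genes called in the same fit in brackets, and the cause of each change was not tested. With a replicate block within each stage, which treats same-numbered libraries as pairs, 3 were called for TMG on D30 (DCN, POSTN and TWIST1) in place of 0 (0.961% in place of 0%). It called 5 for D30 against D12 in control (13.7% in place of 3.6%) and 4 in TMG (6.03% in place of 0.511%), each in place of 1, 2 for D70 against D30 in control in place of 0 (7.72% in place of 0.384%), and 5 for D12 against D0 in TMG in place of 2 (28.9% in place of 16.4%). Of these calls TWIST1 for D30 against D12 in control and TWIST2 for D12 against D0 were lower, the others higher; the block moved no other count by over 1.5 times. DESeq2 called 1 for TMG on D30 (3.13%), 3 and 5 for D30 against D12 in control and TMG (12.7% and 5.79%), 1 for D70 against D30 in control (8.38%) and 5 for the replicate numbers on D30 (2.61%). With no filter, D70 against D0 fell to 3 in each arm (13.2% in control and 12.7% in TMG) and D12 against D0 in TMG to 1 (7.23%), and the replicate numbers on D30 gave 1 (0.202%). With only the libraries of the stages compared, D12 against D0 gave 5 in control and 7 in TMG (36.5% and 35.8%), with TWIST2 lower and the others higher in each arm, D30 against D12 in TMG 2 (3.98%), D70 against D0 3 in control and 4 in TMG (19.4% and 19.2%), and the replicate numbers 2 on D30 (0.0721%) and 0 on D70 (0%). Leaving out each library in turn gave 0 to 1 for TMG on D30 (0% to 0.673%), 1 to 2 for D12 against D0 in either arm (3.96% to 12.5% in control and 3.21% to 13.3% in TMG), 0 to 1 in control (0% to 3.42%) and 0 to 2 in TMG (0% to 0.692%) for D30 against D12, 0 to 1 for D70 against D30 in TMG (0.00384% to 6.29%; TWIST2, higher, without TMG replicate 1 of D70), 3 to 7 in control (14.2% to 34.1%) and 3 to 8 in TMG (10.9% to 29.5%) for D70 against D0, 0 to 2 for the replicate numbers on D30 (0% to 0.224%) and 5 to 6 on D70 (8.76% to 15.4%). Under leaving out 1 library the log2 fold change for TMG on D30 ran from -0.25 to 4.13 for LUM, from -1.01 to 9.17 for TWIST1, from 1.98 to 7.60 for DCN, from 1.44 to 6.85 for POSTN, from 0.49 to 5.53 for PRRX1 and from -0.16 to 1.42 for ACTA2, and that between the numbers on D70 from -0.61 to 0.34 for PDGFRA. For low genes such as TWIST2, at 3 counts in the D70 libraries numbered 1, depth limits the size of the fold change.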

Other observations

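The skeletal muscle and mesendoderm lists gave no call between the D70 libraries of different number, with 6 and 5 genes tested. Of these, 3 skeletal muscle genes and 1 mesendoderm gene had a positive log2 fold change. When TMG replicate 2 of D70 was left out, 5 of 6 skeletal muscle genes and 4 of 7 mesendoderm genes tested had one. The sum of the skeletal muscle list, between 186 and 309 CPM on D70, came mostly from TTN, and the most abundant mesendoderm gene, GATA6, was at 13.3 and 9.09 CPM in control and at 7.03 and 2.31 CPM in TMG. Of 3 blood genes tested, CD68 rose and PTPRC, a marker of white blood cells, fell from 22.4 to 1.37 CPM in control and from 16.8 to 0.0925 CPM in TMG (log2 fold change -4.97, SE 0.87, adjusted p = 0.014 by edgeR). The calls of blood genes stand beside the same 7.6% and 10.7% of all genes. With TMG replicate 2 of D70 left out, the median over 4 blood genes tested was 2.49, against 1.19 over 3 with it.

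ACAN, the core proteoglycan of cartilage, was at 103 CPM in TMG replicate 2 of D30 against 0.680 to 1.22 CPM in the other 3 libraries of that stage, and on D70 at 0.257 and 37.5 CPM in control and at 0.395 and 517 CPM in TMG. It was therefore high in the same 3 late libraries as the matrix genes. COL2A1, the main collagen of cartilage, was at 374 and 219 CPM in control and at 329 and 2787 CPM in TMG on D70, high in 1 of them. ERG, which is expressed in endothelium and in developing cartilage, was at 73.9 CPM in TMG replicate 2 of D30 against 0.00 to 4.07 CPM in the other 3 libraries of that stage. On D70 it was at 0.321 and 20.5 CPM in control and 0.316 and 30.7 CPM in TMG, while the endothelial gene CLDN5 was at 79.9 and 4.91 CPM in control and 19.9 and 0.185 CPM in TMG.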
